A study of Mus musculus with 16 samples.

Results

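Mouse embryonic stem cells (ESCs) hold retroelements silent through DNA methylation and, beside it, through methylation of histone H3 on lysine 9 (H3K9). The genes described here are 10 that act in this second arm: Trim28, Setdb1, Zfp57, Atf7ip, Ehmt1, Ehmt2, Suv39h1, Suv39h2, Daxx and Atrx. They were taken by symbol from a deposited table of 26127 gene entries, in which they have 11 entries because Atf7ip is listed under 2 gene identifiers. All 11 entries were among the 12892 that passed a filter on low values.

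In this pathway zinc finger proteins with a KRAB domain bind DNA and recruit TRIM28, a corepressor that brings in HP1 proteins and SETDB1, the enzyme that trimethylates H3K9. ATF7IP is the partner that stabilises SETDB1, and ZFP57 is the KRAB protein that guards methylated imprinting control regions. EHMT1 and EHMT2 (GLP and G9a) form the complex that dimethylates H3K9, SUV39H1 and SUV39H2 trimethylate it in constitutive heterochromatin, and DAXX with ATRX deposits the histone variant H3.3 at retroelements and repeats.

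After removal of ribosomal RNA, total RNA was sequenced in 8 wildtype (WT) libraries, 4 libraries of genotype Dnmt1-/- (Dnmt1 KO) and 4 of genotype Dicer/Dnmt1 -/- (Dicer/Dnmt1 KO). Dnmt1 is the maintenance DNA methyltransferase, and Dicer, encoded by Dicer1, cuts microRNAs and other small RNAs from their precursors. The labels place all 16 libraries in the E14 background, whereas the study's methods name C57BL/6 as the strain of the parent line, in which both Dnmt1 alleles are flanked by loxP sites and are deleted by a Cre recombinase induced with tamoxifen. The methods also say that the Dicer lines were made from these cells by genome editing and grown from single-cell colonies, in serum with LIF, with or without feeders. The study made lines with a conditional and lines with a constitutive Dicer deletion, and the genotype label does not say which was sequenced here. The library titles mark WT as CTR for both Dicer and Dnmt1, Dnmt1 KO as CTR for Dicer, and Dicer/Dnmt1 KO as KO for both. They do not say what the CTR state was. The labels give neither the time since deletion nor the clone, and beyond these terms each library carries only a number and a letter, A or B. Nothing states that libraries came from separate cultures, so p-values measure the spread between libraries, which may be partly technical.

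The libraries held 31.46 to 52.54 M reads, and 44.2% to 48.7% of them fell in listed genes. Dnmt1 had a median of 7.48 log2 RPM in WT, falling to 4.40 in Dnmt1 KO and, for Dicer/Dnmt1 KO, to 4.57, but it lay at 5.69 in WT 4A and 5.55 in WT 4B, against 7.40 or more in the other WT libraries. These libraries stood apart also for some of the silencer genes, so values without them are given where a result moves. Dicer1 had a median of 3.87 in Dicer/Dnmt1 KO, against 5.44 in both WT and Dnmt1 KO. Of the ESC pluripotency markers, 9 of 9 in the table were above 1 RPM in every library, with sums of 1498 to 2301 RPM in WT, 1391 to 1791 in Dnmt1 KO and 1706 to 1969 in Dicer/Dnmt1 KO. In Dnmt1 KO 3 of the 9 were called lower than WT and 0 higher, beside 17.5% and 23.5% of all entries. Among the lower ones were Sox2 (-0.67) and Nanog (-0.64), both also with averaging. Between the knockouts 3 of the 9 were called higher in Dicer/Dnmt1 KO and 1 lower, beside 16.9% and 19.4% of all entries. Nanog was among the higher ones, at 0.73. With averaging 1 and 0 were called there, beside 5.28% and 4.22%. The summed level of feeder fibroblast markers was 187 to 674 RPM in WT, 361 to 490 in Dnmt1 KO and 490 to 856 in Dicer/Dnmt1 KO, and 8 of 10 were above 1 RPM in each library. Although the sums overlapped WT, 5 of the 8 tested feeder markers were called higher than WT for Dnmt1 KO and 0 lower, beside 23.5% and 17.5% of all entries. For Dicer/Dnmt1 KO these counts were 6 and 0, beside 31.9% and 30.1%. With averaging 4 and 5 of them were still called higher, beside 11.0% and 21.6%. Primitive endoderm markers summed to 91.2 to 199 RPM in WT, 295 to 431 in Dnmt1 KO and 238 to 274 in Dicer/Dnmt1 KO, and none was without reads throughout a group. Against WT 10 of 10 were called higher in Dnmt1 KO and 0 lower, beside 23.5% and 17.5% of all entries. For Dicer/Dnmt1 KO 7 were called higher and 0 lower, beside 31.9% and 30.1%. With averaging 9 and 3 were still called higher, beside 11.0% and 21.6%. Between the knockouts 0 were called higher and 5 lower, beside 16.9% and 19.4%, and with averaging 0 and 2, beside 5.28% and 4.22%. Of the trophoblast markers, 3 of 9 were above 1 RPM in each WT library, 6 in each Dnmt1 KO library and 4 or 5 in each Dicer/Dnmt1 KO library. The part of other cell types in the results below was not tested. The Y-linked genes summed to 0.320 to 1.42 RPM in WT against 14.8 to 23.0 RPM in the knockouts, so the origin of the cells and the genotype cannot be told apart.

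Levels are log2 RPM as deposited, the log2 of the reads of a gene scaled to 1000000 reads in a library. Each change is a log2 fold change from limma with its standard error (SE) and an adjusted p, and a change was called when that p was under 0.05 over all 12892 entries. Libraries A and B of the same number resembled each other more than most other pairs did, with an estimated correlation of 0.667. For this reason the calls of the silencer genes are given with their adjusted p after averaging A and B, which leaves 4, 2 and 2 values in the groups.

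In Dnmt1 KO 3 silencer genes stood above WT in both ways of handling the replicates: Daxx, which was 1.55-fold higher, Ehmt2 (1.44-fold) and Trim28 (1.37-fold). Suv39h1, Zfp57 and Atrx were lower by 0.34, 0.35 and 0.22 on the log2 scale over the 16 libraries, calls that were lost when A and B were averaged. In Dicer/Dnmt1 KO Daxx (0.26) and Ehmt2 (0.21) were called higher and Suv39h2 (-0.23) lower over the 16 libraries, but not with averaging. Atf7ip was 2.08-fold higher than WT and Zfp57 was 0.684 times the WT level, and these calls against WT held with A and B averaged. Trim28 was not above WT there, with 8.70 ± 0.06 log2 RPM (SD, n = 4) against 8.76 ± 0.12 (n = 8).

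**Figure D1:**
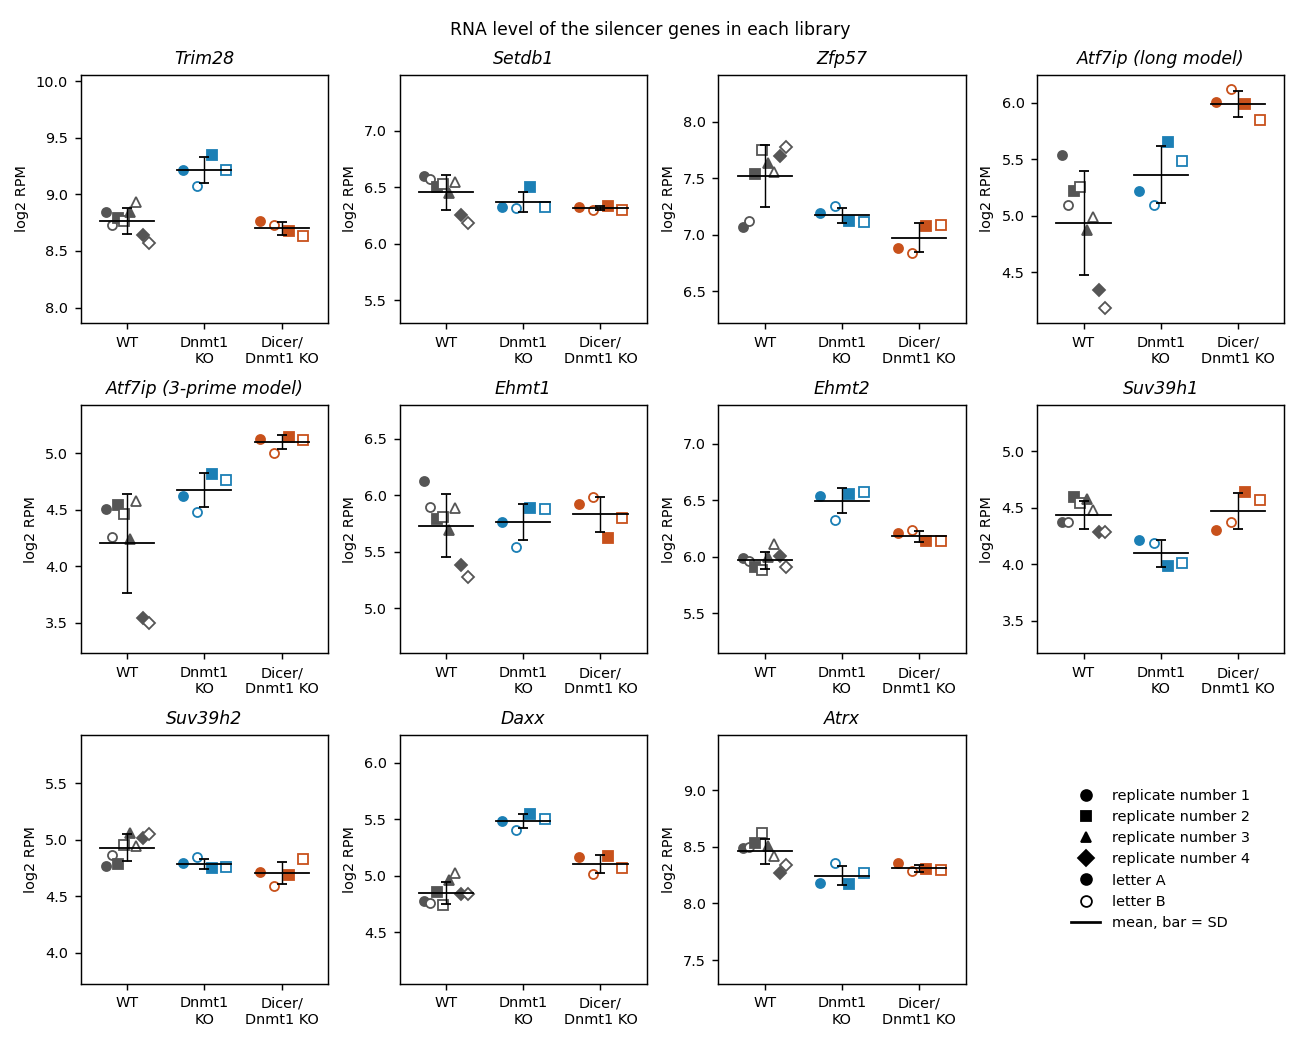
Level of each silencer gene (y axis, log2 RPM, with the same span in every panel) in the 16 libraries of the 3 groups (x axis). Symbols mark the replicate number, filled for letter A and open for B, lines and bars are the mean and SD, and Daxx, Ehmt2 and Trim28 of Dnmt1 KO sit wholly above WT, and Atf7ip of Dicer/Dnmt1 KO sits wholly above the other groups.

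Among the 11 entries 7 were called in Dnmt1 KO against WT, 4 higher and 3 lower, where 41.0% of all tested entries were called (23.5% higher, 17.5% lower). For Dicer/Dnmt1 KO against WT the count was 6 of 11, 4 higher and 2 lower, beside 61.9% (31.9% higher, 30.1% lower). Between the knockouts 5 of 11 were called, 2 higher and 3 lower in Dicer/Dnmt1 KO, beside 36.3% (16.9% higher, 19.4% lower). With A and B averaged, 3 of 11 were called in Dnmt1 KO, all higher, beside 17.7% (11.0% higher, 6.74% lower). Averaging left 2 higher and 1 lower in Dicer/Dnmt1 KO against WT, beside 39.8% (21.6% higher, 18.2% lower), and 0 of 11 between the knockouts by limma, beside 9.50% (5.28% higher, 4.22% lower). At an unadjusted p under 0.05 the averaged fit gave 4 of 11 in each of the 3 comparisons, beside 32.1%, 50.3% and 28.3% of all entries. Dnmt1 KO and WT did not overlap for 4 of the 11 entries (3 higher, 1 lower), beside 23.2% of all entries (14.8% higher, 8.43% lower). Dicer/Dnmt1 KO lay wholly above WT for 3 and wholly below it for 0, beside 41.4% (22.6% and 18.9%). The knockouts did not overlap for 7, with Dicer/Dnmt1 KO on top for 3 and below for 4, beside 43.2% (20.8% and 22.3%). The median change of the 11 entries was 0.04, 0.03 and -0.06, and that of all tested entries 0.04, 0.02 and -0.01. Counts over so few entries are not read as a result about the set, and what follows is about its single genes. Scaling moved the direction of calls over all entries: 57.3% of those called in Dnmt1 KO against WT were higher, beside 46.3% after quantile normalization and 39.6% with each library's length trend removed, which took the share for Dicer/Dnmt1 KO from 51.4% to 38.8%. The comparisons with WT share the 8 WT libraries, so their values are given side by side and not correlated.

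**Figure D2:**
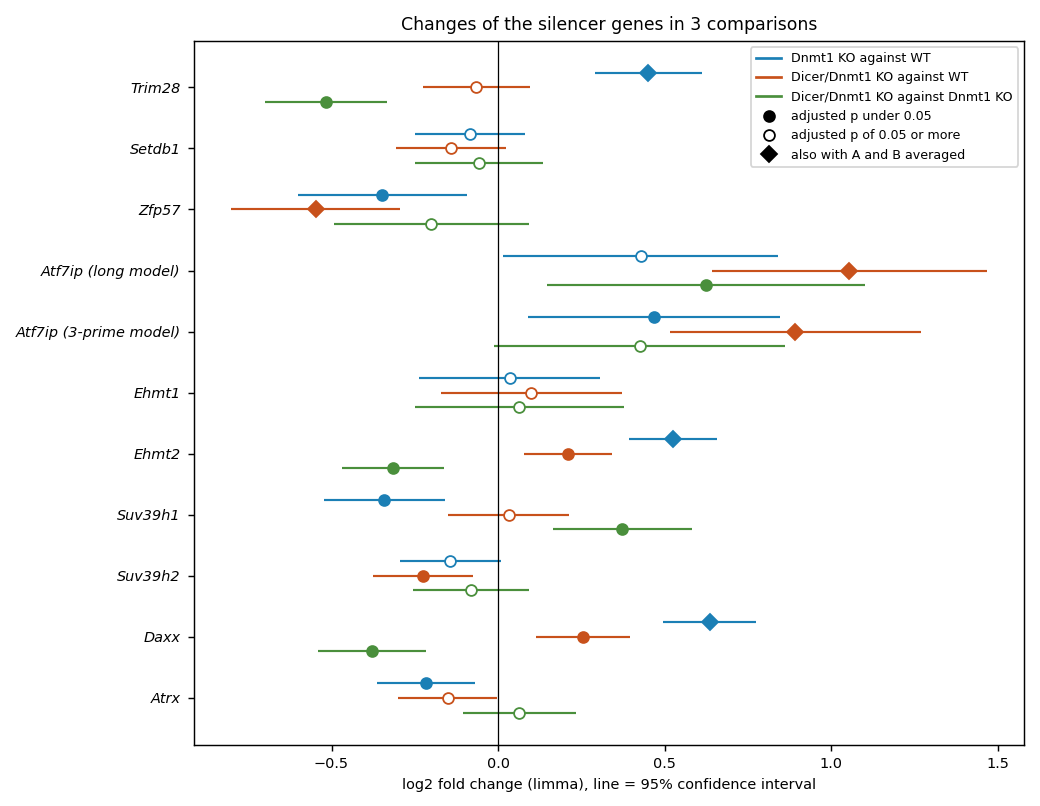
Log2 fold change (x axis) of each silencer gene in the 3 comparisons, with its 95% confidence interval. Filled symbols passed an adjusted p of 0.05 over the 16 libraries and diamonds passed also with A and B averaged: Trim28, Ehmt2 and Daxx in Dnmt1 KO, and Zfp57 and both Atf7ip entries in Dicer/Dnmt1 KO.

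Levels of different genes were compared per length, as RPM for each 1000 bases of exon (RPKM). Trim28 was the most abundant, with 108 ± 8.66 RPKM in WT (SD, n = 8), 103 ± 4.06 in Dicer/Dnmt1 KO and 147 ± 11.5 in Dnmt1 KO (n = 4 each). Zfp57 came next (49.2, 38.1 and 33.2 RPKM), then Atrx (23.3 RPKM in WT, 20.9 in Dicer/Dnmt1 KO and less in Dnmt1 KO). The ranges of these 3 genes did not overlap in any group. The other genes lay between 3.26 and 16.5 RPKM on average. Suv39h1 was the lowest in each group, at 3.26 RPKM in Dnmt1 KO, 4.13 in WT and 4.23 in Dicer/Dnmt1 KO, and in WT its range overlapped that of the next entry. In WT the ranges of Setdb1 and Ehmt2 overlapped, as did those of neighbours from Daxx down to Suv39h1. Such overlap does not compare genes within a library: in each WT library Suv39h1 was below its next entry, the downstream one of Atf7ip. The order in the middle changed with genotype: after Atrx came Setdb1 in WT, Ehmt2 in Dnmt1 KO and the long Atf7ip entry in Dicer/Dnmt1 KO, where its range overlapped that of Ehmt2.

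Trim28 (ENSMUSG00000005566, NCBIM37 chromosome 7, 13609501 to 13616384, plus strand, up to 17 exons) encodes the corepressor itself. It ranged in WT from 8.57 over a median of 8.78 to 8.93 log2 RPM. The Dnmt1 KO libraries read 9.22 (1A), 9.08 (1B), 9.35 (2A) and 9.21 (2B), and the Dicer/Dnmt1 KO libraries 8.76, 8.73, 8.68 and 8.63 in the same order. All 4 Dnmt1 KO libraries thus lay above all others, and the Dicer/Dnmt1 KO libraries lay inside the WT range. The log2 fold change was 0.45 (SE 0.08, limma adjusted p = 0.000149, 0.0390 averaged) in Dnmt1 KO against WT and -0.07 (SE 0.08, 95% interval -0.23 to 0.10, adjusted p = 0.466) in Dicer/Dnmt1 KO. Between the knockouts it was -0.52 (SE 0.09, limma adjusted p = 0.000232), which with averaging did not pass (adjusted p = 0.0588). The change in Dicer/Dnmt1 KO relative to WT depended on the scaling, with 0.19 (limma adjusted p = 0.102) after quantile normalization and a called -0.18 (adjusted p = 0.0200) with the length trend removed.

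Setdb1 (ENSMUSG00000015697, chromosome 3, 95127447 to 95161124, minus strand, up to 22 exons), the methyltransferase that TRIM28 recruits, ranged in WT from 6.18 over a median of 6.51 to 6.60 log2 RPM. It read 6.33, 6.32, 6.50 and 6.33 in Dnmt1 KO (1A, 1B, 2A, 2B) and 6.33, 6.30, 6.33 and 6.30 in Dicer/Dnmt1 KO. The knockout libraries fell within the WT range, whose low end is WT 4A (6.25) and WT 4B (6.18). No comparison was called, with log2 fold changes of -0.08 (SE 0.08, limma adjusted p = 0.412), -0.14 (SE 0.08, adjusted p = 0.127) and -0.06 (SE 0.09, adjusted p = 0.650). Without WT number 4 the changes against WT were -0.16 and -0.22, with limma adjusted p of 0.0273 and 0.00302. These calls were not repeated with A and B averaged. Averaged over all libraries, the limma adjusted p was 0.688 and 0.392. The trend of a library's deviations with gene length was strongest in WT 4A and WT 4B (Spearman's rho -0.45 and -0.46). Removal of each library's trend gave calls as well, at -0.20 and -0.42. Median centring gave -0.13 (limma adjusted p = 0.136) in Dnmt1 KO and a called -0.21 (adjusted p = 0.0144) in Dicer/Dnmt1 KO. Quantile normalization gave -0.10 and -0.12, neither called. The lack of a call thus depended on both the WT libraries used and the scaling. The 95% intervals over the 16 libraries, -0.25 to 0.08 and -0.31 to 0.02, leave room for such a decrease.

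Atf7ip, the SETDB1 partner, has a long entry (ENSMUSG00000030213, chromosome 6, 136467372 to 136555898, plus strand, up to 15 exons) and a single-exon entry directly downstream of it on the same strand (ENSMUSG00000053935, 136556350 to 136559373). The long entry ranged in WT from 4.18 over a median of 5.04 to 5.54 log2 RPM. It read 5.22, 5.10, 5.66 and 5.49 in Dnmt1 KO and 6.01, 6.12, 5.99 and 5.84 in Dicer/Dnmt1 KO. Every Dicer/Dnmt1 KO library was above every other library, while Dnmt1 KO overlapped the WT libraries. The change of the long entry was 1.05 (SE 0.20, limma adjusted p = 0.000187, 0.0123 averaged) in Dicer/Dnmt1 KO relative to WT. It was 0.43 (SE 0.20, limma adjusted p = 0.0897) in Dnmt1 KO against WT and 0.63 (SE 0.23, adjusted p = 0.0389, 0.213 averaged) between the knockouts. The lowest WT values were those of WT 4A (4.34) and WT 4B (4.18). Without number 4 the increase in Dicer/Dnmt1 KO was 0.83 (limma adjusted p = 1.43e-05), and against WT numbers 1 and 2 only it was 0.71 (adjusted p = 0.000103). The change in Dnmt1 KO moved from 0.09 against WT numbers 1 and 2 only to a called 0.77 against WT numbers 3 and 4 only.

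The downstream Atf7ip entry ranged in WT from 3.50 over a median of 4.36 to 4.57 log2 RPM, and read 4.63, 4.49, 4.81 and 4.77 in Dnmt1 KO and 5.13, 5.01, 5.14 and 5.11 in Dicer/Dnmt1 KO. Its order of groups was that of the long entry. It rose by 0.89 (SE 0.18, limma adjusted p = 0.000380, 0.0180 averaged) in Dicer/Dnmt1 KO and by 0.47 (SE 0.18, adjusted p = 0.0450, 0.220 averaged) in Dnmt1 KO against WT. Between the knockouts the change was 0.43 (SE 0.21, limma adjusted p = 0.118). The downstream entry was thus called in Dnmt1 KO and the long one was not, with changes of 0.47 and 0.43. Without WT number 4 these were 0.24 (limma adjusted p = 0.0272) and 0.20 (adjusted p = 0.177). Per length the entries lay close together, at 6.32 and 7.06 RPKM in WT and 11.3 and 14.1 in Dicer/Dnmt1 KO.

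Zfp57 (ENSMUSG00000036036, chromosome 17, 37138108 to 37147580, plus strand, up to 6 exons), which keeps imprinted control regions methylated, ranged in WT from 7.07 over a median of 7.60 to 7.78 log2 RPM. It read 7.19, 7.26, 7.12 and 7.11 in Dnmt1 KO and 6.88, 6.84, 7.08 and 7.08 in Dicer/Dnmt1 KO. Within WT the low libraries were WT 1A (7.07) and WT 1B (7.13), which reached the level of the knockouts, while the other 6 lay at 7.54 or above. The change was -0.55 (SE 0.12, limma adjusted p = 0.000821, 0.0343 averaged) in Dicer/Dnmt1 KO and -0.35 (SE 0.12, adjusted p = 0.0285, 0.210 averaged) in Dnmt1 KO against WT. Against WT numbers 1 and 2 only the changes were -0.40 (limma adjusted p = 0.0117) and -0.20 (adjusted p = 0.202). Without WT number 4 the call in Dnmt1 KO was lost too (-0.27, adjusted p = 0.0599). Between the knockouts it was -0.20 (SE 0.14, limma adjusted p = 0.274), although no Dicer/Dnmt1 KO library reached the lowest Dnmt1 KO library.

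Ehmt2 (ENSMUSG00000013787, chromosome 17, 35035414 to 35050997, plus strand, up to 28 exons), the G9a methyltransferase, was tightly spread in WT, from 5.88 over a median of 5.98 to 6.12 log2 RPM. It read 6.53, 6.33, 6.55 and 6.57 in Dnmt1 KO and 6.21, 6.24, 6.14 and 6.14 in Dicer/Dnmt1 KO. The 3 groups did not overlap, with Dnmt1 KO on top and Dicer/Dnmt1 KO in between. The changes against WT were 0.53 (SE 0.06, limma adjusted p = 4.66e-06, 0.0104 averaged) in Dnmt1 KO and 0.21 (SE 0.06, adjusted p = 0.00821, 0.143 averaged) in Dicer/Dnmt1 KO. The knockouts differed by -0.32 (SE 0.07, limma adjusted p = 0.00291, 0.136 averaged). The increase in Dnmt1 KO was called under 32 of 32 alternatives, and the smaller one in Dicer/Dnmt1 KO under 26 of 32. With the trend of each library with gene length removed, the latter was 0.004 (limma adjusted p = 0.963).

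Ehmt1 (ENSMUSG00000036893, chromosome 2, 24646289 to 24775129, minus strand, up to 28 exons), which encodes GLP, ranged in WT from 5.28 over a median of 5.80 to 6.12 log2 RPM. It read 5.76, 5.54, 5.89 and 5.88 in Dnmt1 KO and 5.92, 5.98, 5.63 and 5.80 in Dicer/Dnmt1 KO, all inside the WT range. The log2 fold changes of 0.04 (SE 0.13, 95% interval -0.24 to 0.31), 0.10 (SE 0.13, -0.17 to 0.37) and 0.06 (SE 0.15, -0.25 to 0.38) were not called. Their signs turned under some alternatives, and the change in Dicer/Dnmt1 KO against WT became a called -0.19 with the length trend removed (limma adjusted p = 0.0490).

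Since EHMT1 and EHMT2 act as a pair, their log2 difference was also taken within each library. Ehmt2 minus Ehmt1 was -0.13 to 0.63 in WT with a median of 0.18, 0.67 to 0.78 in Dnmt1 KO and 0.26 to 0.51 in Dicer/Dnmt1 KO. Each Dnmt1 KO library lay above all WT and all Dicer/Dnmt1 KO libraries. The mean rose by 0.49 from WT to Dnmt1 KO (two-sided exact permutation p = 0.0101, 0.0571 adjusted over 6 tests of this kind). It was lower by 0.38 in Dicer/Dnmt1 KO than in Dnmt1 KO (exact p = 0.0286, the smallest that 4 against 4 can give, adjusted 0.0571). On averaged A and B the exact p came to 0.133 and 0.333, where the smallest possible were 0.0667 and 0.333. None of these differences passed after adjustment.

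Suv39h1 (ENSMUSG00000039231, chromosome X, 7638297 to 7651886, minus strand, up to 6 exons), one of the pair of pericentromeric H3K9 methyltransferases, ranged in WT from 4.29 over a median of 4.43 to 4.59 log2 RPM. It read 4.22, 4.19, 3.99 and 4.01 in Dnmt1 KO and 4.30, 4.37, 4.64 and 4.57 in Dicer/Dnmt1 KO. Dnmt1 KO lay wholly below both other groups, which overlapped each other. The change was -0.34 (SE 0.09, limma adjusted p = 0.00421, 0.117 averaged) in Dnmt1 KO and 0.03 (SE 0.09, adjusted p = 0.758) when Dicer/Dnmt1 KO was compared with WT, and it was 0.37 (SE 0.10, adjusted p = 0.00749, 0.157 averaged) between the knockouts. On the opposite strand Gm14820 overlaps 13449 bases of the gene. The libraries were stranded, but the counting setting is not given in the sources used here, so the share of its reads is unknown.

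Suv39h2 (ENSMUSG00000026646, chromosome 2, 3373087 to 3392303, minus strand, up to 6 exons) ranged in WT from 4.76 over a median of 4.95 to 5.06 log2 RPM. It read 4.80, 4.85, 4.75 and 4.76 in Dnmt1 KO and 4.72, 4.59, 4.69 and 4.83 in Dicer/Dnmt1 KO. Both knockouts lay at the low end of WT and overlapped it. The change was -0.23 (SE 0.07, limma adjusted p = 0.0119, 0.141 averaged) in Dicer/Dnmt1 KO and -0.14 (SE 0.07, adjusted p = 0.120) in Dnmt1 KO against WT, with -0.08 (SE 0.08, adjusted p = 0.468) between them. Against WT numbers 1 and 2 only the call in Dicer/Dnmt1 KO was lost (-0.14, limma adjusted p = 0.130). Dclre1c and Gm13184 overlap it on the opposite strand by 8316 and 5934 bases, with the same limit on strand.

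The difference Suv39h1 minus Suv39h2 within a library had a median of -0.48 in WT (-0.77 to -0.20), -0.71 in Dnmt1 KO (-0.76 to -0.58) and -0.24 in Dicer/Dnmt1 KO (-0.41 to -0.04). It was higher by 0.45 in Dicer/Dnmt1 KO than in Dnmt1 KO (two-sided exact permutation p = 0.0286, adjusted 0.0571) and by 0.26 than in WT (exact p = 0.0465, adjusted 0.0697), and it was lower by 0.20 in Dnmt1 KO than in WT (exact p = 0.0646, adjusted 0.0776). These differences did not pass after adjustment, and on averaged A and B the exact p came to 0.333, 0.267 and 0.267.

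Daxx (ENSMUSG00000002307, chromosome 17, 34046359 to 34052534, plus strand, up to 8 exons), the H3.3 chaperone, had the lowest p of the members in Dnmt1 KO against WT. It ranged in WT from 4.74 over a median of 4.84 to 5.03 log2 RPM, and read 5.49, 5.40, 5.55 and 5.50 in Dnmt1 KO and 5.17, 5.01, 5.17 and 5.07 in Dicer/Dnmt1 KO. Dnmt1 KO stood above both other groups without overlap, and Dicer/Dnmt1 KO touched the top of WT only with its library 1B. The changes against WT were 0.64 (SE 0.07, limma adjusted p = 9.89e-07, 0.00511 averaged) in Dnmt1 KO and 0.26 (SE 0.07, adjusted p = 0.00315, 0.0928 averaged) in Dicer/Dnmt1 KO. Between the knockouts the change was -0.38 (SE 0.08, limma adjusted p = 0.00107, 0.0904 averaged). The increase in Dnmt1 KO was called under 32 of 32 alternatives, from 0.55 to 0.70.

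Atrx (ENSMUSG00000031229, chromosome X, 102992954 to 103124736, minus strand, up to 35 exons), the remodeller that works with DAXX, is the longest of the set with 15190 bases of exon. It ranged in WT from 8.27 over a median of 8.50 to 8.62 log2 RPM, and read 8.18, 8.36, 8.17 and 8.27 in Dnmt1 KO and 8.35, 8.29, 8.31 and 8.29 in Dicer/Dnmt1 KO. The knockouts overlapped only the low end of WT, WT 4A (8.27) and WT 4B (8.34). The change was -0.22 (SE 0.07, limma adjusted p = 0.0204, 0.253 averaged) in Dnmt1 KO, -0.15 (SE 0.07, adjusted p = 0.0690) in Dicer/Dnmt1 KO, and 0.06 (SE 0.08, adjusted p = 0.563) between them. The calls depended on the WT libraries used: Dnmt1 KO was at -0.14 (limma adjusted p = 0.117) against WT numbers 3 and 4 only, and Dicer/Dnmt1 KO at -0.20 (adjusted p = 0.00895) without number 4. In the Dicer/Dnmt1 KO libraries deviations rose with gene length (Spearman's rho across entries 0.28 to 0.33). The sign varied in the other groups, with rho from -0.46 (WT 4B) to 0.20 (WT 1A) in WT and from -0.28 (1A) to 0.13 (2A) in Dnmt1 KO. For Dicer/Dnmt1 KO against WT the 286 tested entries of like exon length (12166 to 18977 bases) had a median change of 0.55. With the length trend removed, Atrx was at -0.76 (limma adjusted p = 5.42e-06) in Dicer/Dnmt1 KO and -0.45 (adjusted p = 0.00161) in Dnmt1 KO, while quantile normalization gave 0.08 and -0.16. Its size and sign in Dicer/Dnmt1 KO therefore depended on the scaling. Daxx and Atrx, although partners, had changes of opposite sign in Dnmt1 KO against WT, here and under each of the 32 alternatives.

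Chromosomes were looked at because the groups may differ in origin. The 454 tested entries of chromosome X had a median change against WT of 0.03 for Dnmt1 KO and 0.01 for Dicer/Dnmt1 KO, and -0.05 between the knockouts. Suv39h1 and Atrx lie on it and were at -0.34 and -0.22 in Dnmt1 KO. Xist, the noncoding RNA that silences an X chromosome, had a median of 0.80 log2 RPM in WT, 3.25 in Dnmt1 KO and, for Dicer/Dnmt1 KO, 3.97, and its part in these values was not tested. The 656 entries of chromosome 17, which carries Daxx, Ehmt2 and Zfp57, had medians of -0.02, -0.02 and 0.01.

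**Figure D3:**
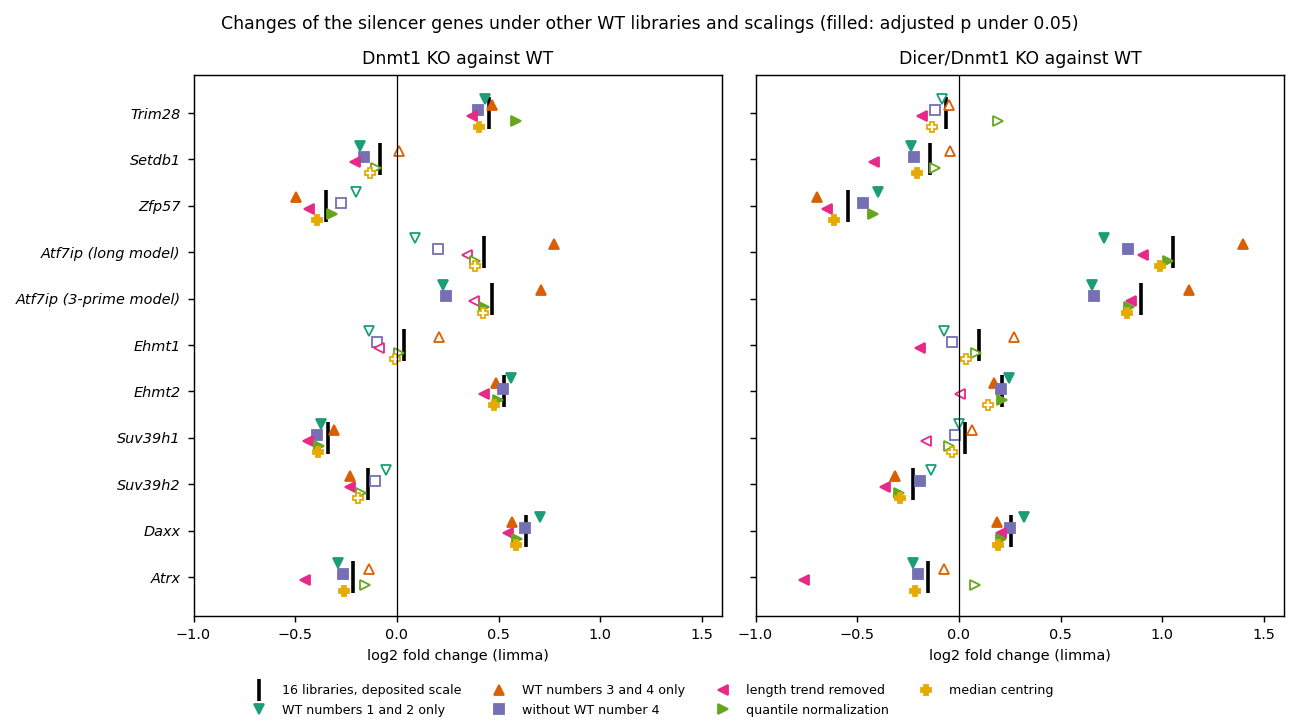
Log2 fold change (x axis) of each silencer gene against WT over the 16 libraries (black bars) and with other WT libraries or scalings (coloured symbols, filled where the adjusted p is under 0.05). Daxx, Ehmt2 and Trim28 stay on the right and called in Dnmt1 KO, both Atf7ip entries do so in Dicer/Dnmt1 KO, while Setdb1 and Ehmt1 in Dnmt1 KO, and Trim28, Ehmt1, Suv39h1 and Atrx in Dicer/Dnmt1 KO, cross 0 with the setting.

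Over the 16 libraries the genes fell into like and unlike profiles, measured as the root mean square (RMS) difference of their log2 RPM after each was centred. Ehmt2 and Daxx were the nearest pair of the 11 entries, with an RMS difference of 0.08, beside own spreads of 0.23 and 0.27. Trim28 was next to Ehmt2 at 0.13, and Setdb1 lay nearest to Atrx (0.11). The Atf7ip entries were 0.16 apart and had the largest spreads (0.54 and 0.48). Zfp57 and the long Atf7ip entry were the farthest apart at 0.82. The pairs known to act together were not the nearest: Ehmt1 and Ehmt2 differed by 0.28, Suv39h1 and Suv39h2 by 0.22, and Daxx and Atrx by 0.37. As the libraries are the same for all genes, these distances describe them and were not tested.

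Among all tested entries, the nearest to Trim28 were Tomm40 (RMS difference 0.07) and Ppp2r1b (0.08). Those nearest to Daxx were Cyb5b (0.06) and Isyna1 (0.08), and those nearest to Ehmt2 were Mdm2 (0.07) and Tmem57 (0.07). Zfp57 was nearest to Fignl1 and Sirt1 (0.09 each), the long Atf7ip entry to Mtap4 (0.08) and Gm340 (0.10), and its downstream entry to Dnajc13 (0.11). Suv39h1 had Cdk17 and Mtbp (0.09 each), Suv39h2 had Ctnnb1 (0.06), and Ehmt1 had Fem1c (0.06) and Kdm5c (0.08). Setdb1 had Snrnp200 (0.06) and Rif1 (0.07), and Atrx had Aspm and Ncapd3 (0.06 each). Genes that varied little had many such neighbours: 107 entries lay within 0.1 of Suv39h2, 66 of Setdb1 and 65 of Atrx, against 8 of Daxx and 4 of Zfp57.

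Dicer loss removes microRNAs, and in ESCs those of the miR-290 cluster are among the most abundant. Several of them share a seed (bases 2 to 8), and the 3 shown here were used. Other members of the cluster have other letters at these bases and were not searched. The mature sequences, from RefSeq (GRCm38.p6, chromosome 7, plus strand), are printed with the seed in capitals because the matches below depend on it.
mmu-miR-291a-3p: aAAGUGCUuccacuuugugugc
mmu-miR-294-3p: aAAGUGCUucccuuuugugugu
mmu-miR-295-3p: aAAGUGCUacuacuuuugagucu
The reverse complement of the seed, AGCACTT, was searched on the transcript strand of the longest annotated 3′ untranslated region (UTR) of each entry. It occurred in 2059 of 12331 tested entries with such a region (16.7%). Among the 11 silencer entries it occurred once in Ehmt1 and once in Suv39h1, and these stretches are shown with the match in capitals.
Ehmt1, chr2:24647217-24647223, NCBIM37, minus strand: ctccgtgctgcAGCACTTtccacgtctcc
Suv39h1, chrX:7639042-7639048, NCBIM37, minus strand: attctttagatAGCACTTaagacagtaat

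Entries with a match had a median change of 0.25 when Dicer/Dnmt1 KO was set against WT and of 0.17 when set against Dnmt1 KO, beside -0.02 and -0.04 for entries without one. Ehmt1 changed by 0.10 and 0.06 there, neither called, and Suv39h1 by 0.03 and by the called 0.37. Tested entries of an exon length like that of Ehmt1, with or without a match, had medians of 0.23 and 0.13 in these comparisons. For Suv39h1 the like values were 0.13 and 0.07. The part of gene length in the medians with and without a match was not tested. In Dnmt1 KO against WT, where Dicer1 was not deleted, the medians with and without a match were 0.05 and 0.03. Atf7ip, which rose most in Dicer/Dnmt1 KO, held no match in the regions of 484 and 1488 bases annotated for its entries, which says only that these letters are not there.

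The promoters of most of these genes were rich in CpG, the dinucleotide that DNMT1 methylates. In RefSeq windows of 300 bases (GRCm38.p6; CG counted, which reads alike on both strands) all 10 symbols matched, with 16 windows. They held 4 to 40 CG, against a median of 7 over 32851 windows. Daxx had 32 or 33 (windows with as many made up at most 9.52% of all), Suv39h2 33, Ehmt1 34 and Ehmt2 28 and 40. Suv39h1 had 37 and 15 in its windows, Atf7ip 29 and Trim28 23. Setdb1 had 15 and Atrx 11, and 34.6% and 41.4% of windows held as many or more. Zfp57 stood at the other end, with 4, 6 and 9 CG in its 3 windows, as many as or more than which 68.6%, 56.4% and 45.8% of windows held. DNA methylation was not measured in these libraries.

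The HP1 proteins and the TRIM28 and SETDB1 partners were described as a list of 19 genes, all tested. In Dicer/Dnmt1 KO against WT 3 were called higher and 7 lower, beside 31.9% and 30.1% of all tested entries, and with A and B averaged 2 and 6 (21.6% and 18.2% of all). The median change was -0.15 beside 0.02. Chd3, a remodeller of the NuRD complex, rose by 1.23 (SE 0.15, limma adjusted p = 1.74e-06), and Gatad2b, another NuRD subunit, by 0.96 (SE 0.23, adjusted p = 0.00166). In Dnmt1 KO 2 stood above WT and 1 below, beside 23.5% and 17.5%, led by Hdac1 at 0.45 and Chd3 at 0.44, and none was called with averaging, where 17.7% of all entries were. Between the knockouts 1 was higher, Chd3 at 0.79 (0.0676 averaged), and 6 were lower, beside 16.9% and 19.4%, and with averaging 0 and 1 (5.28% and 4.22% of all). The lower ones were led by the HP1 gene Cbx1 at -0.62 (SE 0.07, limma adjusted p = 5.36e-06, 0.0196 averaged).

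Against WT, the 21 entries of 20 KRAB zinc finger genes split into 4 higher and 3 lower for Dnmt1 KO and into 7 and 7 for Dicer/Dnmt1 KO, beside 23.5% and 17.5% of all entries for the former and 31.9% and 30.1% for the latter. With averaging these were 2 and 2, and 3 and 3. The shares of all entries were then 11.0% and 6.74%, and 21.6% and 18.2%. The list medians were -0.05 and -0.03. Zfp661 fell in both, by 0.86 (SE 0.13, limma adjusted p = 6.01e-05) and 0.73 (SE 0.13, adjusted p = 0.000140) on the log2 scale. Zfp14 was at -0.81 in Dnmt1 KO (adjusted p averaged 0.0871), and Zfp819 rose by 0.93 in Dicer/Dnmt1 KO (SE 0.12, limma adjusted p = 5.70e-06). Between the knockouts 2 were higher and 2 lower, with Zfp287 at -0.52 and Zfp74 at 0.37, beside 16.9% and 19.4%. With averaging 0 and 0 were called by limma (Zfp287 0.138, Zfp74 0.168), beside 5.28% and 4.22%.

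The HUSH complex and the MORC ATPases silence young retroelements. In each knockout 2 of the 5 tested genes were above WT and 1, Mphosph8, below, beside 23.5% and 17.5% of all entries for Dnmt1 KO and 31.9% and 30.1% for Dicer/Dnmt1 KO. With averaging 2 and 0 stayed called in Dnmt1 KO, beside 11.0% and 6.74%, and 1 and 1 in Dicer/Dnmt1 KO, beside 21.6% and 18.2%. Morc4 rose by 0.90 in Dnmt1 KO (SE 0.11, limma adjusted p = 5.25e-06, 0.00359 averaged) and by 0.48 in Dicer/Dnmt1 KO (SE 0.11, adjusted p = 0.00117, 0.0286 averaged). Morc2a was higher by 0.46 in Dnmt1 KO (SE 0.09, limma adjusted p = 0.000563). Mphosph8, which encodes the HUSH subunit MPP8 that reads H3K9 methylation, was lower, at -0.58 in Dicer/Dnmt1 KO (SE 0.07, limma adjusted p = 1.24e-06, 0.00294 averaged). Between the knockouts none was higher and 2 were lower, Morc4 at -0.42 and Mphosph8 at -0.32, beside 16.9% and 19.4%. Both calls were lost with averaging (0.140 and 0.130), where 5.28% and 4.22% of all entries were called.

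For EHMT and SUV39H partners and other H3K9 methyltransferases, 14 genes were tested. In Dnmt1 KO 3 stood above WT and 2 below, beside 23.5% and 17.5% of all entries, and with averaging 1 and 0 (11.0% and 6.74% of all). The former were led by L3mbtl2 (0.47, SE 0.08, limma adjusted p = 9.73e-05, 0.0265 averaged) and Prdm2 (0.46, SE 0.17, adjusted p = 0.0403, 0.202 averaged). For Dicer/Dnmt1 KO relative to WT 9 were higher and 3 lower, beside 31.9% and 30.1%, and 4 and 1 with averaging (21.6% and 18.2% of all). The median there was 0.27 beside 0.02. Prdm16, an H3K9 methyltransferase, rose there by 1.46 (SE 0.23, limma adjusted p = 3.90e-05) and Rb1, the retinoblastoma gene, by 0.96 (SE 0.15, adjusted p = 2.67e-05). Between the knockouts they were at 1.67 and 0.63, where 2 were higher and 2 lower, beside 16.9% and 19.4%. With averaging 1 and 0 were called there, beside 5.28% and 4.22%, and Rb1 was lost (0.113).

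Of the H3K9 demethylase genes 11 were tested, and in Dnmt1 KO only Jhdm1d (-0.34) and Kdm4b (-0.31) were called. Both were lower, beside 17.5% of all entries called lower. Both were lost with averaging, where 6.74% of all entries were called lower. In Dicer/Dnmt1 KO 3 stood above and 1 below WT, beside 31.9% and 30.1%, and 1 and 0 with averaging (21.6% and 18.2% of all). Above Dnmt1 KO stood 5, beside 16.9%, and 1 with averaging (5.28% of all). Kdm1b, which encodes LSD2, a demethylase known mainly for H3K4, rose by 0.76 (SE 0.08, limma adjusted p = 6.53e-07, 0.00184 averaged) and by 0.85 (SE 0.10, adjusted p = 4.95e-06, 0.0111 averaged). Phf8 was at 0.51 against WT (averaged adjusted p 0.0774), and Kdm3b at 0.58 against Dnmt1 KO (0.222), so neither call held.

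The list of H3.3 genes and other H3.3 chaperones had 13 tested members. Of these 4 were above and 1 below WT in Dnmt1 KO, beside 23.5% and 17.5% of all entries. With averaging 1 and 0 were called, beside 11.0% and 6.74%. Smarcad1, a remodeller that acts with TRIM28, rose by 0.51 (SE 0.07, limma adjusted p = 2.71e-05, 0.0185 averaged), and Hira was at 0.43 (SE 0.15, adjusted p = 0.0343, 0.203 averaged). For Dicer/Dnmt1 KO relative to WT 4 were higher and 4 lower, beside 31.9% and 30.1%, and 3 and 1 with averaging (21.6% and 18.2% of all). Over the 16 libraries they were led by Ubn2 at 0.76 and by H3f3a, which encodes H3.3, at -0.55 (SE 0.14, limma adjusted p = 0.00264, 0.0506 averaged). Between the knockouts 2 were higher, the HIRA partners Ubn1 (0.67) and Ubn2 (0.64), and 5 were lower, beside 16.9% and 19.4%. With averaging 1 and 0 were called there, beside 5.28% and 4.22%: Ubn1 was kept (0.0494) and Ubn2 was lost (0.129). The list medians were 0.13, 0.19 and -0.04.

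**Figure D4:**
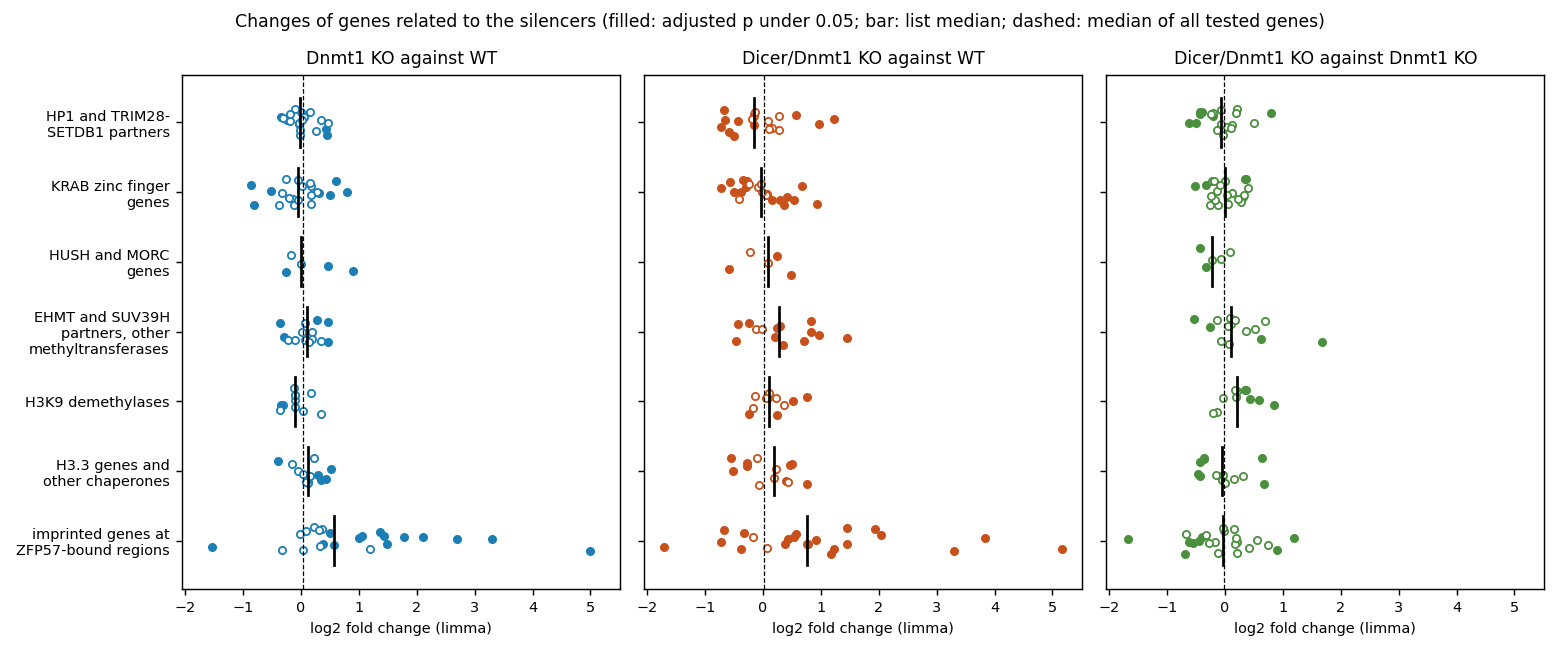
Log2 fold change (x axis) of each tested gene in 7 lists related to the silencers (y axis), in the 3 comparisons, filled where the adjusted p is under 0.05, with list medians as bars and the median of all tested entries dashed. The imprinted genes lie furthest to the right in both comparisons with WT, with medians of 0.58 and 0.76, and the medians of the other lists lie between -0.15 and 0.27 there.

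Of these 7 lists, imprinted genes at control regions bound by ZFP57 had the medians furthest from that of all tested entries in the comparisons with WT. Set against WT, 13 of 23 rose and 1 fell in Dnmt1 KO, while 16 rose and 5 fell in Dicer/Dnmt1 KO, beside 23.5% and 31.9% of all entries called higher and 17.5% and 30.1% lower. With A and B averaged 12 and 15 were called higher, beside 11.0% and 21.6%, and 1 and 2 lower, beside 6.74% and 18.2%. The medians were 0.58 and 0.76. Meg3 rose by 4.99 and 5.17 and H19 by 3.29 and 3.84 (SE 0.25 and 0.46 in each, limma adjusted p of 2.49e-05 or less). Between the knockouts 2 were higher and 6 lower, beside 16.9% and 19.4%, and 0 and 3 with averaging (5.28% and 4.22% of all). Usp29 was at -1.68 (SE 0.21, limma adjusted p = 1.32e-05, 0.0113 averaged) and Plagl1 at 1.19 (SE 0.28, adjusted p = 0.00317, 0.0731 averaged). Zfp57 itself was called lower in both knockouts over the 16 libraries, but with averaging only in Dicer/Dnmt1 KO. The part of its level in these values was not tested.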

How the data were processed

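Total RNA of 16 mouse ESC libraries (8 WT, 4 Dnmt1 KO, 4 Dicer/Dnmt1 KO) was analysed from the table the authors deposited. The authors trimmed reads with Trim Galore 0.3.5, aligned them to NCBIM37 with TopHat2 2.0.11 (versions from the submitters' processing notes) and quantified genes in SeqMonk; the deposited values are log2 RPM. The authors tested with DESeq2, which needs counts. Here limma 3.58.1 (R 4.3.3) fitted 3 group means to the log2 values with an intensity trend, for entries above 1 RPM in at least 4 libraries, with Benjamini-Hochberg adjustment and a threshold of 0.05. The fit was run on simulated data whose errors were independent between libraries. As libraries A and B are correlated here, that run says nothing about calls under such correlation. On the linear scale all 176 member values came out as whole reads (within 0.01 read or 1 part in 10000), and 3 reads correspond to 0.0571 to 0.0954 RPM (counting error only). A further 35 value columns of other samples were not used. Coordinates, exon lengths and UTRs are from GENCODE M1 (NCBIM37), which counts from 1 and held all 26127 entries. Exact permutation tests enumerated all assignments of libraries. The 10 genes and the related lists were chosen with earlier results of these data known. Named were all members, the 2 tested entries nearest in profile to each (2 of these entries are not reported here), and, from each list, the 2 called genes with the largest change per comparison; marker and Y-linked lists are given by sums and counts, with Sox2, Nanog and Xist named after their values were seen. The alternatives averaged A and B, estimated their correlation, used single letters, other WT libraries, a replicate block, other scalings, filters and variance models, and left out each library in turn.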

Additional observations from a re-analysis of the deposited data

Results flagged for a closer look

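Of 33 combinations of an entry and a group, 2 had a library far from the others by Dixon's criterion, which chance flags in about 1 of 20 groups. Setdb1 in Dnmt1 KO 2A was 6.50 log2 RPM, with the nearest other library at 6.33. Ehmt2 in Dnmt1 KO 1B was 6.33, with the nearest other at 6.53, and it was still above every WT library.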

How the results depend on the processing

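Of 1056 values of single entries under 32 alternatives, 912 kept their sign and their side of the threshold, 86 lost and 30 gained a call, and 28 turned sign. Under each of the 32, Daxx and Ehmt2 were called in Dnmt1 KO and both Atf7ip entries in Dicer/Dnmt1 KO, all against WT. Where values moved, the cause was not tested, except that averaging or halving the libraries leaves fewer degrees of freedom. Over all tested entries, 5289 calls in Dnmt1 KO against WT became 2288 with A and B averaged, 2723 with their correlation estimated, 1833 with letter A only and 1610 with letter B only. The 7985 calls for Dicer/Dnmt1 KO relative to WT became 5134 averaged, 4002 with letter A and 4813 with letter B. The 4682 calls between the knockouts became 1225 averaged, 2109 with the estimated correlation, 951 with letter A and 667 with letter B. Of the 11 silencer entries, the 7 called in Dnmt1 KO became 3 averaged, 4 with the estimated correlation, 3 with letter A, 2 with letter B and 4 with no filter on low values. The 6 called in Dicer/Dnmt1 KO became 3 averaged, 2 with letter A and 3 with letter B. The 5 called between the knockouts became 3 with the estimated correlation and 0 with limma on averaged, letter A or letter B libraries. Leaving out 1 library at a time gave 4054 to 5624, 7109 to 8368 and 3690 to 5194 calls over all entries in the 3 comparisons, and 4 to 8, 5 to 8 and 4 to 6 silencer calls, the lowest of these in Dnmt1 KO being without its library 1A. Replicate labels did not pair libraries across groups: of 12 correlations between the deviations of libraries with the same label (-0.42 to 0.37) 4 were above 0.1, and 0 were the highest for that label. With the replicate block 5661, 7122 and 5864 entries were called, and 7, 7 and 6 silencer entries. The signs that turned follow. Setdb1 in Dnmt1 KO was 0.011 against WT numbers 3 and 4 only. Ehmt1 in Dnmt1 KO, 0.04 over the 16 libraries, was -0.006 with letter B, -0.137 with the replicate block and with WT numbers 1 and 2 only, -0.098 without WT number 4, -0.011 with median centring, -0.088 with the length trend removed, and -0.029 to 0.110 with 1 library left out. Ehmt1 in Dicer/Dnmt1 KO against WT was -0.073 with the replicate block and with WT numbers 1 and 2 only, -0.034 without WT number 4 and -0.191 with the length trend removed. Suv39h1 there was -0.018 without WT number 4, -0.049 with quantile normalization, -0.033 with median centring, -0.161 with the length trend removed, and -0.024 to 0.089 with 1 library left out. Quantile normalization put Trim28 at 0.193 and Atrx at 0.078 in the same comparison. Between the knockouts Ehmt1 was -0.052 with letter A, -0.103 with the length trend removed and -0.011 to 0.132 with 1 library left out, and Atrx was -0.025 with letter B and -0.308 with the length trend removed. Depth was not limiting for these genes, which had 380 to 24231 reads in a library.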
